A study of Mus musculus with 2 samples.

Results

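The nuclear-encoded subunits of oxidative phosphorylation were examined in BV2 cells, an immortalized line made from mouse microglia with a virus that carries the raf and myc oncogenes. The genes were chosen by symbol alone (Nduf, Sdh, Uqcr, Cyc1, Cox4 to Cox8 and Atp5 genes), from transcript clusters that the array annotation pairs with exactly 1 gene symbol. A transcript cluster is a set of probes read as 1 value, which the annotation assigns to a gene. The choice gave 82 of 19938 genes, measured by 106 clusters, with 35 genes of complex I, 4 of complex II, 9 of complex III, 17 of complex IV and 17 of complex V. The symbol pattern leaves out Ndufab1, and another 6 clusters that match it carry several symbols and were not used. Subunit genes such as Ndufb4 and Cox7c, which have no cluster of their own here, were not analysed.
The study asked which genes differ when BV2 cells are kept in DMEM/F12, which it calls a high-nutrient medium, or in DMEM, a standard one. Its methods name the DMEM as high-glucose and do not give the glucose of DMEM/F12. According to the methods, all cells started in DMEM/F12 with serum, and a day later received fresh DMEM/F12 or DMEM. The labels give an incubation of over 1 day at 37°C and 5% CO2, of 1 culture per medium. The DMEM cells were therefore moved out of the medium in which the DMEM/F12 cells stayed. RNA of each culture was hybridized to 1 Affymetrix Mouse Gene 1.0 ST array, so there are 2 arrays and no replicates. The authors deposited log2 signals, and every difference below is the log2 signal in DMEM/F12 minus that in DMEM. No significance was calculated, and each difference compares these 2 cultures only. In bulk RNA, fewer cells with a transcript and less transcript per cell cannot be told apart.
The 2 arrays had nearly the same median over all 28944 clusters (4.77 in DMEM/F12 and 4.75 in DMEM). Background was the 95th percentile of clusters for odorant, pheromone and taste receptor genes, at 4.17 in DMEM/F12 and 4.15 in DMEM. Of 11 measured markers of microglia and macrophages, 8 were above background, among them Cd68 (11.21 in DMEM/F12 and 11.10 in DMEM) and Tyrobp (11.17 and 11.13), whereas Aif1, P2ry12 and Fcrls were not. Tmem119 and Trem2, also microglial markers, differed by -0.66 and 0.40. Among markers of other cells, 1 of 3 for astrocytes, 1 of 3 for neurons, both measured ones for oligodendrocytes and 2 of 3 for fibroblasts were above background, none of them over 6.06 on either array. Their part in the results below was not tested.

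Oxidative phosphorylation is carried out in the inner mitochondrial membrane. Complexes I and II pass electrons from NADH and succinate to ubiquinone, complex III passes them on to cytochrome c, and complex IV reduces oxygen. Complexes I, III and IV pump protons, and complex V lets the protons flow back to make ATP. Most subunits are encoded in the nucleus and imported, while the mitochondrial genome encodes a few membrane subunits of complexes I, III, IV and V. In microglia, as in other macrophages, the balance between respiration and glycolysis is known to shift with the activation state.

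As a group, the subunit genes lay close on the 2 arrays. Their median difference was -0.01, with 38 genes higher, 42 lower and 2 equal, beside a median of 0.00 over all 19938 genes, of which 47.2% were higher and 45.5% lower in DMEM/F12. Of the 82 genes, 43 (52.4%) differed by no more than 0.1, compared with 38.6% of all genes and 40.0% of the 13225 genes above background. Among the 314 genes with a mean log2 signal of 10 or more the share was 55.7%. Of the 82 subunit genes, 16 had such a signal, and 9 of these 16 (56.25%) differed by no more than 0.1. Median signals were 8.295 in DMEM/F12 and 8.285 in DMEM for the subunit genes, and 4.98 and 4.96 for all genes. The SD of the difference across genes was 0.17 for the 16 bright subunit genes and 0.18 for the 314 bright genes. It was 0.23 for all genes and 0.18 for all 82 subunit genes. Differences of at least 1.2-fold, which is 0.263 on the log2 scale, were seen for 2 higher genes (2.44%, where 11.2% of all genes were that much higher) and 7 lower genes (8.54%, where 10.5% of all genes were). Among the 314 bright genes, 5.10% were at least 1.2-fold higher and 4.78% at least 1.2-fold lower. Of the 16 bright subunit genes, 0 were that much higher and 1 that much lower. Just under this size were Ndufs1 at 0.26 and Ndufc1 at -0.26. At 1.5-fold there was 1 higher gene, Cox8b, and 0 lower genes, where 0.928% and 0.727% of all genes were that much higher and lower. At 2-fold there were 0 in either direction (0.0602% and 0.0251% of all genes).
The 7 lower genes were Uqcrb (-0.47), Ndufa5 (-0.40), Ndufa2 and Sdhb (both -0.37), Ndufs5 and Ndufs6 (both -0.34), and Cox7b2 (-0.34). The 2 higher genes were Cox8b (0.63) and Cox4i2 (0.30). Cox8b and Cox7b2 were not above background on either array, nor was Cox6b2, and the other 79 genes were above it on both. Of these 79 genes, 1 was at least 1.2-fold higher and 6 lower, where 9.84% and 9.67% of the 13225 genes above background were. With values below background raised to it, the differences of Cox8b and Cox7b2 were both 0.02, which is only the gap between the background values. The medians by complex were -0.02 for complex I, 0.07 for complex II, 0.08 for complex III, 0.02 for complex IV and -0.08 for complex V.

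**Figure D1:**
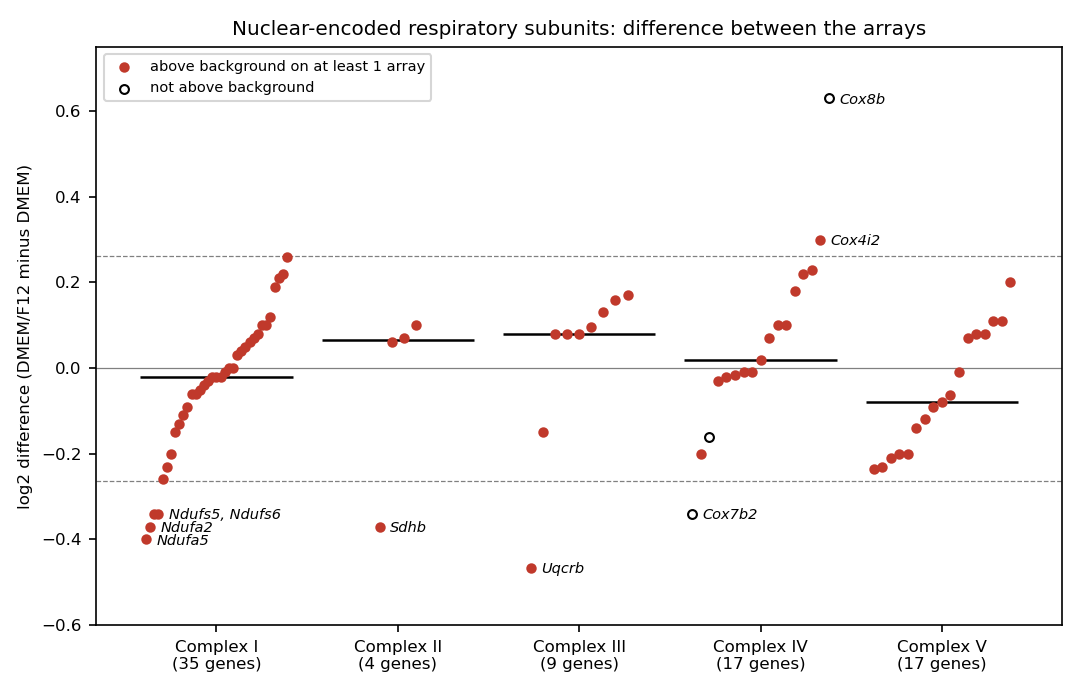
The 82 subunit genes grouped by complex (x axis, with the number of genes), each at its log2 signal in DMEM/F12 minus that in DMEM (y axis). Red dots are genes above background on at least 1 array, open circles the 3 genes that were not, black lines the median of each complex and dashed lines 1.2-fold; Uqcrb at -0.47 is the lowest gene and Cox8b at 0.63 the highest.

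Promoter sequences are shown for the lower genes above background that have a sequence in the RefSeq promoter table and may be printed, together with Sdha, a partner of Sdhb in complex II that was not lower. Each window runs from 250 bases before to 50 bases after the annotated start in GRCm38.p6, and 66 of the 82 genes have at least 1 window, Uqcrb not among them. The capitals mark matches, on either strand, to motifs of NRF1, a transcription factor known for driving many genes of respiration (GCGC, any base, then TGCGC), of ETS factors such as GABP (CCGGAAG) and of YY1 (AAGATGGCG). No matches overlap in the windows shown.
Ndufa5 promoter (chr6:24527477-24527776, minus strand): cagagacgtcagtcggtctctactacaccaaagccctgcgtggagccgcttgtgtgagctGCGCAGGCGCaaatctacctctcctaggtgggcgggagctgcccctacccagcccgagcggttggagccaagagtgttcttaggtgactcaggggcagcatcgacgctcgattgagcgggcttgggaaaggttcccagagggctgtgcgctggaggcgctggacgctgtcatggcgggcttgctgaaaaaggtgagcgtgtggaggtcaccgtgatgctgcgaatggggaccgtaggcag
Ndufs5 promoter (chr4:123718137-123718436, minus strand): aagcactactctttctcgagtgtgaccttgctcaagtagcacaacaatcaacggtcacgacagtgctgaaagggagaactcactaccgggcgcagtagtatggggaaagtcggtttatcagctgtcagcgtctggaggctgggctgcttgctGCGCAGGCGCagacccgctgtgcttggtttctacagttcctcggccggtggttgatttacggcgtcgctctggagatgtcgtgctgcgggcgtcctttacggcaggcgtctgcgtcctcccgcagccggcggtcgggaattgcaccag
Ndufs6 promoter (chr13:73328433-73328732, minus strand): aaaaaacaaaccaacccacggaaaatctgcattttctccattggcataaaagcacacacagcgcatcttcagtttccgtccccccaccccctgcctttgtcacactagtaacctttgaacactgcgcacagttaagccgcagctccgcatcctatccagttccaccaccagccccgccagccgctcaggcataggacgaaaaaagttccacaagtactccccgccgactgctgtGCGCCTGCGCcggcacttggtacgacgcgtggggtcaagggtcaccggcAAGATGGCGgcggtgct
Sdhb promoter (chr4:140961021-140961320, plus strand): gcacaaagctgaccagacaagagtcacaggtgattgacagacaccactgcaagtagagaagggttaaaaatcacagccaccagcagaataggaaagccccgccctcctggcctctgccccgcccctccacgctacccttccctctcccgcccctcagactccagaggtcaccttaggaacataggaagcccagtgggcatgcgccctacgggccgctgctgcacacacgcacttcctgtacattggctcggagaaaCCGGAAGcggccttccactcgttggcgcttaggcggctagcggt
Sdha promoter (chr13:74350191-74350490, minus strand): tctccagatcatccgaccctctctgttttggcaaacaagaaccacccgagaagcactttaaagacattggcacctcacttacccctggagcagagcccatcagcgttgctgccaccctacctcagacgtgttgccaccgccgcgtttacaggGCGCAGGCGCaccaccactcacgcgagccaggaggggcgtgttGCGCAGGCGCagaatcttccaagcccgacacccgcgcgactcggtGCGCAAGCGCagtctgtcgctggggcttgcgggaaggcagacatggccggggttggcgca
The windows of Ndufa5 and Ndufs5 hold 1 NRF1 match each, and that of Ndufs6 1 NRF1 and 1 YY1 match. The window of Sdhb holds 1 ETS match and no NRF1 match, and that of Sdha 3 NRF1 matches, the most of any of the 66 genes with a window. Sdhd, another partner of Sdhb that was not lower (0.07), has 1 NRF1 and 1 ETS match and is not printed. Of the 66 genes with a window, 16 (24.2%) had an NRF1 match, 17 (25.8%) an ETS match and 7 (10.6%) a YY1 match. Among all 27025 genes of the table the shares were 5.19%, 9.93% and 1.64%, and among the 17491 protein-coding genes 7.17%, 12.9% and 2.14%. NRF1 matches were found for 6 of 31 genes of complex I, 2 of 3 of complex II, 1 of 5 of complex III, 1 of 12 of complex IV and 6 of 15 of complex V. The median difference was -0.02 for the 16 genes with an NRF1 match (9 lower, 7 higher) and -0.01 for the 50 genes without one (27 lower, 21 higher). A match is a run of letters and does not show binding.

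In complex I, the catalytic core and the accessory subunits are given apart. The nuclear-encoded core carries the flavin and the iron-sulfur clusters, and 6 of its genes were analysed, with 4 higher and 2 lower and a median of 0.05. Ndufs1, which encodes the large iron-sulfur subunit of the NADH-oxidizing arm, had a signal of 7.58 in DMEM/F12, against 7.32 in DMEM. Ndufs8 (10.40 in DMEM/F12 and 10.30 in DMEM) and Ndufs7 (11.72 and 11.66), which carry iron-sulfur clusters near the ubiquinone site, differed by 0.10 and 0.06. Ndufs3, a core subunit without a cofactor, differed by 0.03, Ndufv1, which binds flavin and NADH, by -0.02, and Ndufv2, its iron-sulfur neighbour, by -0.11 (10.27 in DMEM/F12 and 10.38 in DMEM). These 6 core genes lay within 1.2-fold, except that Ndufs1 was just past it with quantile normalization or loess centring (0.27 in both).
The 27 accessory subunit genes, which stabilize and help to assemble the core, had a median of -0.04, with 8 higher, 17 lower and 2 equal. Ndufa5, a small subunit of the arm in the matrix, had 4.72 in DMEM/F12, against 5.12 in DMEM. This signal, from 1 cluster, was close to the background of 4.17 in DMEM/F12 and 4.15 in DMEM. Ndufa2, which has a thioredoxin-like fold and lies in the same arm, had 7.42 in DMEM/F12 and 7.79 in DMEM. Ndufs5, on the side of the intermembrane space, had 5.65 in DMEM/F12, against 5.99 in DMEM. Ndufs6, the zinc-binding subunit, had 7.09 in DMEM/F12 and 7.43 in DMEM. These were the 4 of 35 genes of complex I at 1.2-fold or more in the deposited values, all lower, where 10.5% of all genes were that much lower. Ndufc1 joined them with median centring (-0.28) or the brightest cluster (-0.30).
Ndufc1 (-0.26), Ndufa1 (-0.23), Ndufa3 (-0.20), Ndufa12 (-0.15) and Ndufb11 (-0.13) were the next lowest, and Ndufb10 (0.22), Ndufa6 (0.21), Ndufc2 (0.12) and Ndufa10 (0.10) were the highest. Of these, Ndufa1 (4.98 in DMEM/F12 and 5.21 in DMEM) and Ndufb10 (5.15 and 4.93) were also close to background. Ndufa13 and Ndufb7 had equal signals on both arrays (8.13 and 7.22), and the other 12 accessory genes lay between -0.09 and 0.08. By the letter of the symbol, the Ndufb genes, whose products lie in the membrane arm, had a median of 0.00 (4 higher, 4 lower and 1 equal of 9) and the Ndufa genes, including Ndufa4 and Ndufa4l2, a median of -0.03 (4 higher, 9 lower and 1 equal of 14). Ndufa4, named for complex I and since assigned to complex IV, differed by -0.02 (7.76 in DMEM/F12 and 7.78 in DMEM). Its paralog Ndufa4l2, known for induction in hypoxia, differed by 0.19 (4.71 and 4.52, close to background). Probes differ in how well they bind, so signals of different genes are not compared as amounts.

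**Figure D2:**
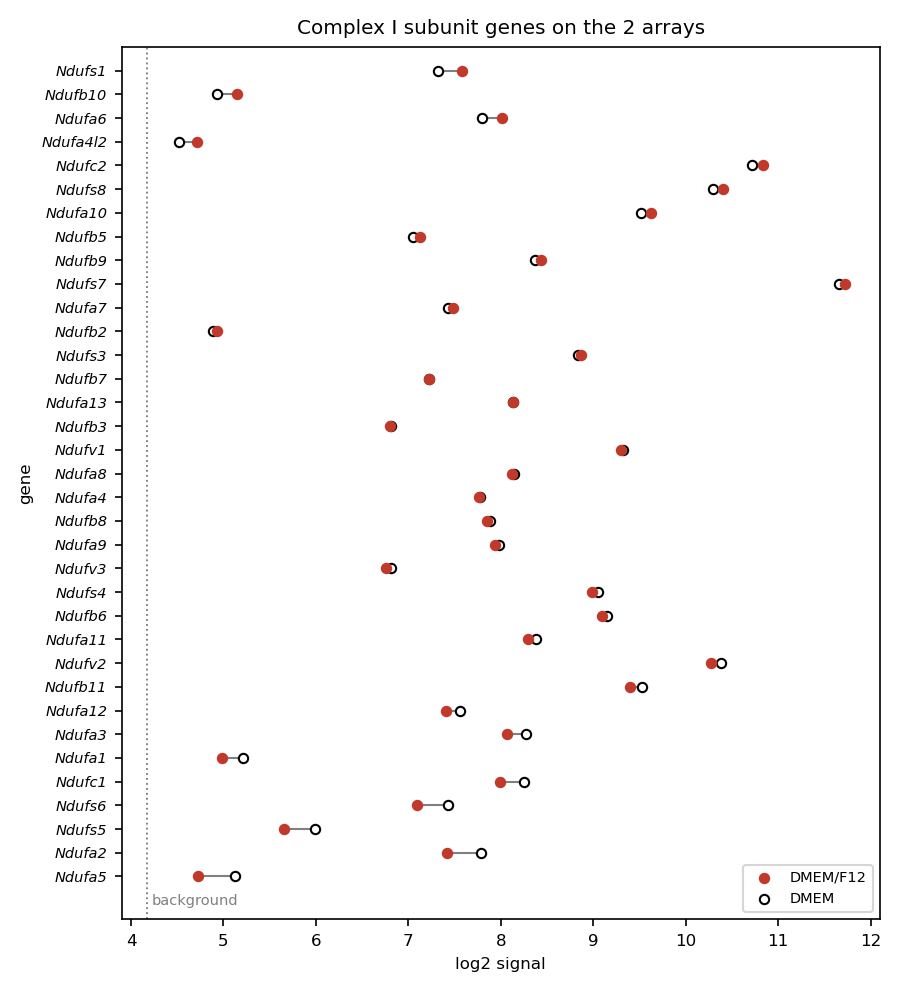
Complex I subunit genes (y axis, sorted by their difference) with the log2 signal (x axis) on the DMEM/F12 array in red and on the DMEM array as open circles, a line between them, and background dotted. The red dot lies left of the open circle in 20 of 35 genes, and the widest gap to the left is that of Ndufa5 (4.72 in DMEM/F12, 5.12 in DMEM).

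Complex II, succinate dehydrogenase, has 4 subunits, all nuclear-encoded, and belongs to the citric acid cycle as well. Sdhb, the iron-sulfur subunit, had 7.66 in DMEM/F12, against 8.03 in DMEM (1.29-fold lower). The other 3 were slightly higher in DMEM/F12, namely the flavoprotein Sdha by 0.10 (9.14 and 9.04) and the membrane anchors Sdhd by 0.07 (9.02 and 8.95) and Sdhc by 0.06 (9.41 and 9.35). Sdhb thus stood apart from the subunits it assembles with, by 1 cluster on each array.
In complex III, 7 of 9 genes were higher in DMEM/F12, where 47.2% of all genes were. All 7 were higher by less than 1.2-fold, and 4 of the 9 genes differed by no more than 0.1. Uqcrb, which binds ubiquinone in the complex, was the exception in size, with a mean of 9.77 in DMEM/F12, against 10.24 in DMEM (1.38-fold lower). Its 3 clusters had 9.70, 9.95 and 9.66 in DMEM/F12, against 10.09, 10.41 and 10.21 in DMEM. All 3 were lower, with differences of -0.55 to -0.39, but the annotation lists the same transcripts for them, so they are not independent measurements. Of the catalytic subunits, the Rieske iron-sulfur protein gene Uqcrfs1 was higher by 0.16 (7.31 in DMEM/F12 and 7.15 in DMEM) and the cytochrome c1 gene Cyc1 was lower, by -0.15 (9.18 and 9.33). The core proteins Uqcrc1 (9.19 in DMEM/F12 and 9.11 in DMEM) and Uqcrc2 (10.20 and 10.12) both differed by 0.08. Of the small subunits, Uqcr10 was higher by 0.17 (7.98 in DMEM/F12 and 7.81 in DMEM), Uqcrh by 0.13 and Uqcrq by 0.08. Uqcr11 had a mean difference of 0.10 over its 2 clusters, which differed by 0.04 and 0.15. Without Uqcrb the median of complex III was 0.09.

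The nuclear-encoded subunits of complex IV surround a catalytic core that is encoded in mitochondria. The 9 subunit genes that most tissues use lay between -0.03 and 0.22, with a median of -0.01, 4 of them higher and 5 lower. Cox8a had 10.62 in DMEM/F12, against 10.40 in DMEM, and was the only one of the 9 to differ by more than 0.1. Cox6a1 differed by 0.10 (8.30 in DMEM/F12 and 8.20 in DMEM) and Cox4i1, which binds ATP and tunes the enzyme, by 0.07 (8.71 and 8.64). Cox7a2, Cox5b, Cox6b1, Cox6c, Cox7b and Cox5a differed by 0.02, -0.01, -0.01, -0.02, -0.02 and -0.03. These 6 were nearly equal on both arrays.
The isoforms known from particular tissues, which most cells replace by another gene, spread further. Cox4i2, the lung isoform that is known to respond to low oxygen, had 5.09 in DMEM/F12, against 4.79 in DMEM. The muscle isoforms Cox6a2 (5.69 in DMEM/F12 and 5.46 in DMEM) and Cox7a1 (5.49 and 5.39) differed by 0.23 and 0.10, and the testis isoform Cox8c by -0.20 (4.84 and 5.04). All 4 were above background on both arrays, by less than 2 on the log2 scale.
Cox8b, another muscle isoform, had 4.01 in DMEM/F12 and 3.38 in DMEM, below background on both. The testis isoforms Cox6b2 (3.81 in DMEM/F12 and 3.97 in DMEM) and Cox7b2 (1.44 and 1.78) were also below it. Together with Ndufa4l2, the 8 tissue-restricted isoforms held both higher genes of at least 1.2-fold and 1 of the 7 lower ones. Cox7a2l, which the symbol pattern takes although its product joins complexes III and IV and is not a subunit proper, was higher by 0.18 (6.0 in DMEM/F12 and 5.82 in DMEM).

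Complex V, the ATP synthase, was divided by place in the enzyme. All 5 genes of F1, the part in the matrix that makes ATP, were slightly higher in DMEM/F12. All 9 genes of the peripheral stalk and the membrane part other than subunit c, joined to 1 group after their values were seen, were lower. Of all genes, 47.2% were higher and 45.5% lower. In each group, 3 genes differed by no more than 0.1. None of the 17 genes reached 1.2-fold in the deposited values, and 1 of them, Atp5md, did with quantile normalization (-0.27). Atp5a1 and Atp5b, which encode the alpha subunit and the catalytic beta subunit, had 10.01 and 12.20 in DMEM/F12, against 9.90 and 12.12 in DMEM. Of the genes of the central stalk, Atp5d for delta and Atp5e for epsilon had 12.51 and 7.21 in DMEM/F12, against 12.43 and 7.14 in DMEM, and Atp5c1 for gamma was higher by 0.11. The 5 differences lay between 0.07 and 0.11.
In the peripheral stalk, which holds F1 in place, Atp5pb for subunit b had 9.58 in DMEM/F12 and 9.79 in DMEM. Atp5o, the gene of the oligomycin sensitivity-conferring protein, had 8.40 in DMEM/F12, against 8.60 in DMEM. Atp5j for coupling factor 6 had 9.85 in DMEM/F12 and 10.05 in DMEM, and Atp5h for subunit d had 8.80 and 8.94. The 4 stalk genes differed by -0.21 to -0.14.
Of the small membrane subunits, Atp5k for subunit e was lower by -0.23 (7.26 in DMEM/F12 and 7.49 in DMEM), Atp5j2 for subunit f by -0.09 (10.08 and 10.17) and Atp5l for subunit g by -0.06 (7.01 and 7.08). Atp5md, whose product is known for holding ATP synthase dimers together, had 11.66 in DMEM/F12, against 11.90 in DMEM, and Atp5mpl had 7.15 and 7.23. These last 2 genes were placed in the membrane group by their products after their values had been seen, and so was the joining of stalk and membrane genes to 1 group of 9.
Subunit c, which forms the rotating ring, is encoded by 3 genes whose products differ in the import sequence and give the same mature protein. Atp5g2 was higher by 0.20 (11.68 in DMEM/F12 and 11.48 in DMEM), Atp5g1 was lower, by -0.12 (10.42 and 10.54), and Atp5g3 differed by -0.01 (9.84 and 9.85). The 3 genes thus did not share a direction. The RefSeq promoter windows of Atp5g2 and Atp5g3 each hold 1 NRF1 match (GCGCATGCGC on chromosome 15 and GCGCTTGCGC on chromosome 2), and that of Atp5g1 holds none.

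**Figure D3:**
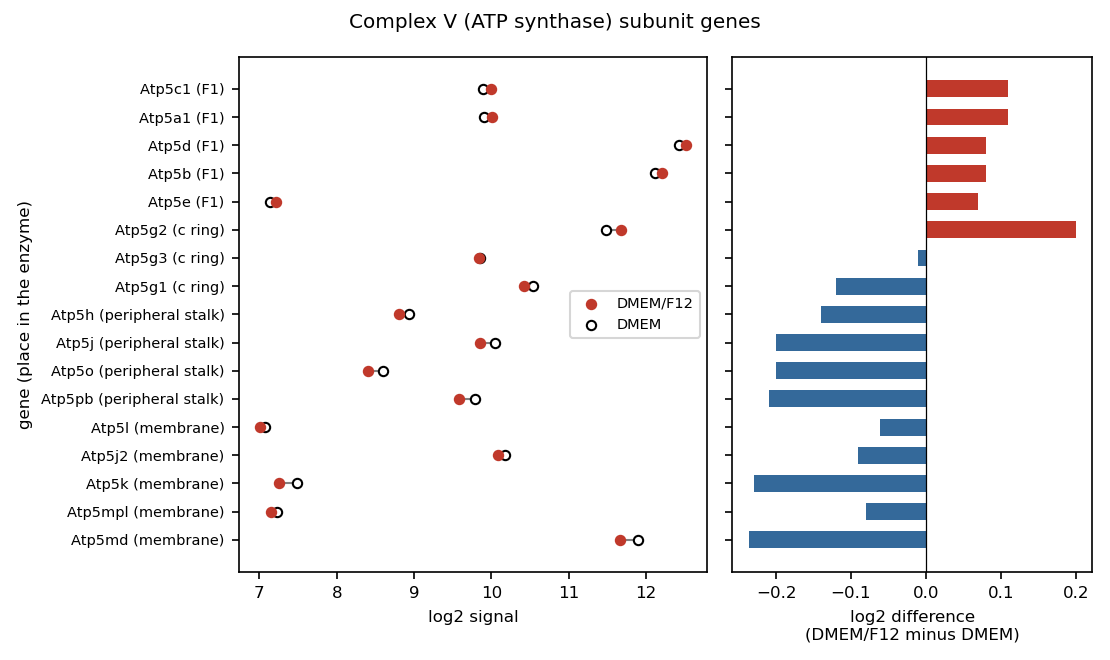
Left, log2 signal (x axis) of each complex V gene (y axis, with its place in the enzyme) on the DMEM/F12 array (red) and the DMEM array (open circles). Right, the signal in DMEM/F12 minus that in DMEM (log2, x axis), where the bars of the 5 F1 genes point to the right (0.07 to 0.11) and those of the 9 stalk and membrane genes to the left (-0.24 to -0.06).

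Where a gene was measured by several clusters, the clusters mostly pointed the same way. This held for 13 of the 16 such genes, and the clusters of Atp5l, Cox5b and Cox7b, whose mean differences were close to 0, included a difference of the other sign or of 0. The distance between the lowest and the highest cluster of a gene was at most 0.18, seen for Atp5h (-0.20 to -0.02) and Atp5pb (-0.30 to -0.12). The 3 clusters of Atp5g2 differed by 0.18 to 0.22, those of Atp5md by -0.28 to -0.21 and both of Atp5g1 by -0.12. For 12 of the 16 genes the annotation lists 1 and the same set of transcripts for all clusters. Where each cluster lies in the genome was not checked, so clusters of 1 gene need not be parts of the same locus. The spread given here is one between clusters on the same 2 arrays and not between cultures.

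**Figure D4:**
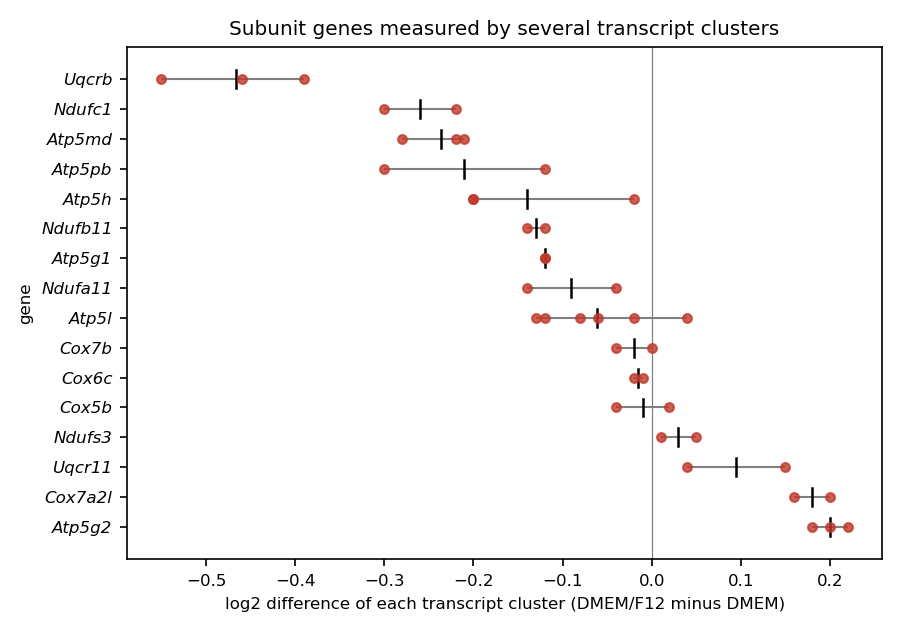
Each dot is a transcript cluster of 1 of the 16 subunit genes with several (y axis, sorted by their mean, black ticks), at its log2 signal in DMEM/F12 minus that in DMEM (x axis). The 3 dots of Uqcrb lie furthest to the left (-0.55 to -0.39) and those of Atp5g2 to the right (0.18 to 0.22).

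Genes that work with the complexes were described in the same way. Of 43 measured assembly factors, which build the complexes without staying in them, 27 were lower and 11 higher in DMEM/F12, with a median of -0.08. Those of complex I had a median of -0.08 (9 of 14 lower, 3 equal), with Ecsit at -0.37 (6.0 in DMEM/F12 and 6.37 in DMEM) and Timmdc1 at -0.35 (7.53 and 7.88). Those of complex II had a median of -0.15 (3 of 4 lower), those of complex III -0.11 (5 of 6 lower), and those of complex V -0.11 (3 of 3 lower). Among them were Sdhaf3 at -0.15, Sdhaf4 at -0.28 with a mean signal below background on both arrays, Uqcc3 at 0.23, Ttc19 at -0.20, Atpaf2 at -0.15 and Atpaf1 at -0.11. The list of complex IV was even, with 7 higher and 7 lower of 16, and held Sco1, a copper chaperone, at 0.43 (6.16 in DMEM/F12 and 5.73 in DMEM) and Cox19, also known from copper delivery, at -0.40 (6.69 and 7.09).
Genes of electron carriers and ubiquinone synthesis had a median of -0.17, with 11 of 14 lower. Etfdh, which passes electrons from fatty acid oxidation to ubiquinone, had 5.21 in DMEM/F12, against 5.61 in DMEM. Cycs, the gene of cytochrome c, had a mean of 8.42 over its 3 clusters in DMEM/F12, against 8.77 in DMEM. Neither gene is a subunit, and both differed by more than any gene of complex V.
The citric acid cycle list had a median of 0.05 (8 of 15 higher), led by Suclg2, for a subunit of succinyl-CoA ligase, at 0.47 and Dlat, for a subunit of pyruvate dehydrogenase, at 0.28. Other subunit genes of succinyl-CoA ligase were lower, Suclg1 at -0.27 and Sucla2 at -0.12. Those of pyruvate dehydrogenase were Pdhb at -0.16, Dld at -0.03 and Pdha1 at 0.07. Genes of ATP, ADP and phosphate exchange had a median of -0.02 (4 of 8 lower), with the outer membrane channel gene Vdac3 at -0.37 and Atpif1, the inhibitor of ATP synthase, at -0.13. Regulators of mitochondrial biogenesis had a median of -0.01 (7 of 12 lower), with Tfam, the packaging and transcription factor of mitochondrial DNA, at -0.37 (5.34 in DMEM/F12 and 5.71 in DMEM) and Tfb1m at -0.22. Nrf1 differed by -0.21, Yy1 by -0.01 and Gabpa by 0.00. Nrf1, Yy1 and Gabpa were named because the motifs above are theirs. Of the mitochondrially encoded subunits, 2 had clusters of their own, 2 each, COX2 at -0.15 (12.48 in DMEM/F12 and 12.63 in DMEM) and ND3 at -0.04 (11.35 and 11.39).
Other large complexes gave other medians on the same arrays. Mitochondrial ribosomal protein genes had a median of -0.16 (56 of 77 lower, 14 of them at least 1.2-fold), proteasome genes -0.14 (35 of 50 lower, 10 at least 1.2-fold), and cytosolic ribosomal protein genes 0.02 (29 of 70 lower, 2 at least 1.2-fold). For the subunits of oxidative phosphorylation the median was -0.01 (42 of 82 lower, 7 or 8.54% at least 1.2-fold). Of all 19938 genes, 45.5% were lower and 10.5% at least 1.2-fold lower. With 1 array per medium the differences between these medians were not tested.

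**Figure D5:**
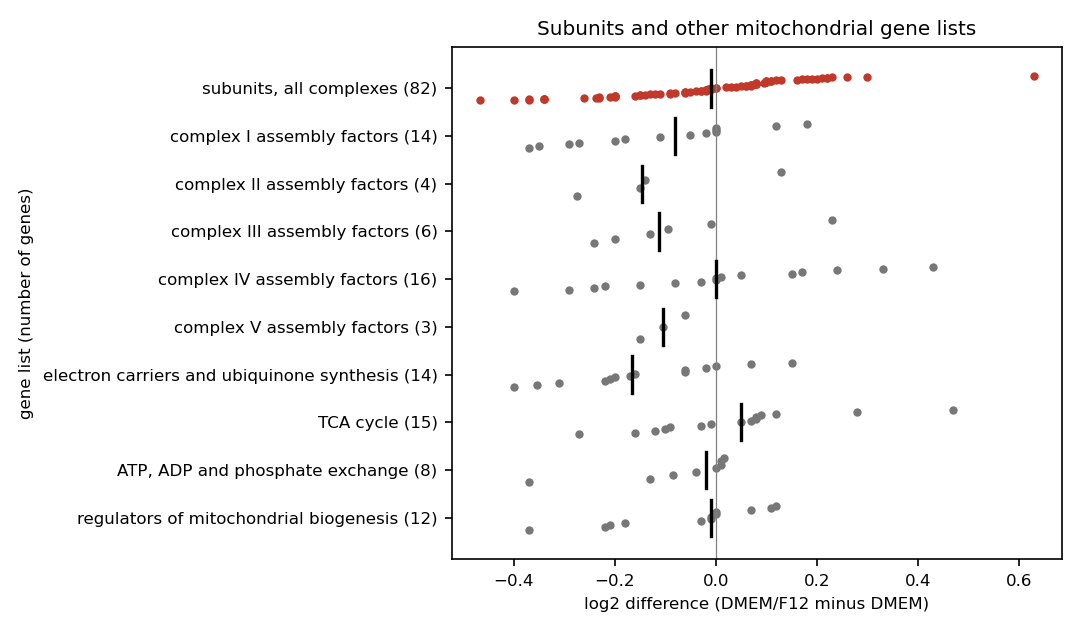
Genes of the subunit set (red) and of 9 other lists (gray), each at its log2 signal in DMEM/F12 minus that in DMEM (x axis), with the number of genes in parentheses (y axis) and the median as a black line. The subunits centre on -0.01, and the electron carrier list on -0.17.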

How the data were processed

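Gene expression of BV2 cells was measured on 2 arrays, 1 for DMEM/F12 and 1 for DMEM. The authors deposited log2 signals with 2 decimals. Expression Console and Transcriptome Analysis Console (Affymetrix) were used per the labels and methods, whereas their versions, summarization, normalization and build were not given in the sources used here. Samples were grouped by the treatment label.
Of 28944 clusters, 21789 have 1 symbol, 1621 several and 5534 none. A gene value is the mean log2 over its clusters, with no further scaling or filter, and all 82 symbols were found under their Entrez number in the RefSeq genes of GRCm38.p6. No coordinates of array clusters are given. Promoter sequences are from RefSeq (GRCm38.p6), and proteins were not used here. With no replicates, no test was run and the number of arrays limits the precision. Counts, medians and folds (thresholds 1.2, 1.5 and 2) are descriptions. Gene values, without scaling and with the 3 scalings named below, were tested on simulated arrays with known differences, by group medians only. The known differences were larger than that of any subunit gene above background. Counts, the other alternatives and the motif search were not checked in this way. The genes, lists and rules were chosen with earlier results of these data known. Named were all genes at 1.2-fold or more, the extremes of each complex, isoform families, catalytic subunits and, in each list of related genes, the 2 with the largest difference among those with a cluster above background. The ribosomal protein and proteasome sets are given by counts and medians only. Other names were chosen after their values were seen. Alternatives were 3 scalings (median, quantile, loess with span 0.3), the brightest cluster per gene, 2 treatments of dim genes, 3 changes of membership and other thresholds. Python 3.11.15, numpy 2.4.6, pandas 2.3.3, statsmodels 0.14.6 and matplotlib 3.10.9 were used.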

Additional observations from a re-analysis of the deposited data

How the results depend on the processing

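No paired analysis was possible because there is 1 sample in each medium. Shifts of over 0.05 (log2) in a value and of over 1.5 times in a count were taken as changes. The median of the subunit genes stayed between -0.03 and 0.01 and that of each complex within 0.05 of its value under the 3 scalings, the brightest cluster, both treatments of dim genes and the 3 changes of membership (tissue isoforms, Cox7a2l, or Ndufab1 and Ndufa4). The sign of the overall median depended on the setting. The count of 2 genes at least 1.2-fold higher was 1 with only genes above background or with dim values raised to background and 0 without tissue-restricted isoforms. At 1.5-fold it was 1 and at 2-fold 0, and the 7 lower genes were 0 at both thresholds. Near the 1.2-fold threshold, Ndufs1, Ndufc1 and Atp5md passed it under some scalings or the brightest cluster, as given with these genes. Raising dim values to background gave 0.02 for Cox7b2 (-0.34 as deposited), Cox6b2 (-0.16 as deposited) and Cox8b. A gene below background on both arrays gets this value by construction, as the gap between 4.17 and 4.15. With the brightest cluster, Atp5h was -0.20, Atp5l -0.13, Atp5pb -0.12 and Uqcr11 0.04. By alternatives chosen after seeing the data, the 5 F1 genes stayed higher and the 9 stalk and membrane genes lower under the 3 scalings. Median centring moved every difference by only -0.02. Raised values could not change these genes, which were all above background on both arrays. The brightest cluster could not change the F1 genes, with 1 cluster each, and the 9 stalk and membrane genes stayed lower with it. Complex I had 18 to 22 lower genes across the scalings, the brightest cluster and raised values.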
